A study of Homo sapiens with 8 samples.

Results

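The resistant lines are compared here across all genes: resistant BRCA1-proficient cells against resistant BRCA1-deficient cells, chosen by their labels and represented by 4 of the 8 RNA-seq libraries of the series. UWB1.289 is an ovarian carcinoma line without functional BRCA1, and UWB1.289+BRCA1 is the same line with BRCA1 restored. The series profiled both lines and a derivative of each that carries the prefix Olres in its name and is described as resistant to PARP inhibitors, and all 4 were grown in medium without drug. Each derivative is labelled as a single line. The resistant deficient group (Olres-UWB1.289) was at passage 56 and the resistant proficient group (Olres-UWB1.289+BRCA1) at passage 45, with 2 libraries each. The parental deficient cells (UWB1.289, passage 29) and parental proficient cells (UWB1.289+BRCA1, passage 10), also with 2 libraries each, show which differences were there between the lines without resistance. BRCA1 state, passage number and the separate derivation of the lines changed together, and their parts in any difference below cannot be told apart.

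PARP enzymes mark and help to repair breaks in a single DNA strand, and PARP inhibitors block and trap them on DNA. Cells repair the double-strand breaks that follow by homologous recombination, in which BRCA1 promotes end resection and acts with PALB2 and BRCA2 in the steps that follow. Cells without BRCA1 are therefore sensitive to these drugs, and known routes to resistance include lower drug target levels, loss of the 53BP1, RIF1 and shieldin proteins that shield DNA ends, and drug efflux.

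The resistant lines differed over most of the transcriptome, with 11978 of 16221 genes tested (73.8%) past the test. Resistant proficient cells had more BRCA1 mRNA, more mRNA of clustered protocadherins and of zinc finger genes of chromosome 19, and more of several interferon-stimulated genes such as GBP1, SAMD9 and BST2. Of 50 interferon-stimulated genes tested 26 were higher and 17, such as IFITM2 and OAS3, lower. Resistant proficient cells had less mRNA of TGF-beta targets such as FN1 and SPARC and of most cytosolic ribosomal proteins. Of 20 WNT-linked genes 11 were lower, such as DKK1 and MYC, and 6 higher, such as AXIN2. A run of neighbouring genes on chromosome 13, including ZMYM2 and GJB2, was expressed in the deficient libraries and at or near 0 counts in the proficient ones. PARP1, PALB2 and BRCA2 were lower in resistant proficient cells. In numbers, 2820 genes (17.4%) were at least 2-fold higher and 3736 (23.0%) at least 2-fold lower in resistant proficient cells at an edgeR adjusted p under 0.05. Without the 2-fold limit 36.3% were higher and 37.5% lower, so that a list of genes would need to depart from these shares to stand out.

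Throughout, a log2 fold change is resistant proficient minus resistant deficient, and levels are CPM, read counts scaled to a common library total, given for both libraries of a group. CPM is not corrected for gene length, so levels are compared between libraries and not between genes. A gene is called higher or lower only where it passed an adjusted p of 0.05 in edgeR's quasi-likelihood test, and members of lists were counted on that rule. After ± stands the standard error of the fit, with n = 2 libraries a group. Where a gene is followed by a pair of log2 fold changes, the first is as deposited and the second with the GC trend removed, as described below, and both passed the test unless said otherwise. The 4 resistant libraries held 24094821 to 33627021 counts. Replicate libraries were not interchangeable: the chi-square per degree of freedom between the replicates was 22.5 in resistant deficient and 8.65 in resistant proficient libraries, where sampling noise alone gives about 1.

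The fold changes followed the GC content of the transcripts. Over 15665 genes with a known GC content (96.6% of those tested), the median log2 fold change fell from 0.59 in the decile lowest in GC to -1.93 in the decile highest in GC, with a Spearman rho of -0.515 across genes, which are not independent replicates. The trend was not only between groups. For genes of the top decile, the median log2 distance from a gene's 8-library mean was 1.47 and 0.917 in the deficient libraries and -0.486 and -0.835 in the proficient ones, so that replicates of 1 group also differed along GC. The parental lines showed the same direction with a rho of -0.440. A second fit therefore removed each library's trend on GC content before the test, after which the decile medians lay between -0.21 and 0.00 and rho was -0.023. This fit found 2422 genes (15.5% of 15665) at least 2-fold higher and 2452 (15.7%) at least 2-fold lower. At least 2-fold in both fits were 1857 genes higher (11.9%) and 1937 lower (12.4%), and 1016 genes (6.49%) passed in both fits with opposite signs. Values from both fits are given below for most genes that carry a fold change, and a single value is as deposited, since a difference of the cells that itself follows GC content would be removed with the trend.

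**Figure D1:**
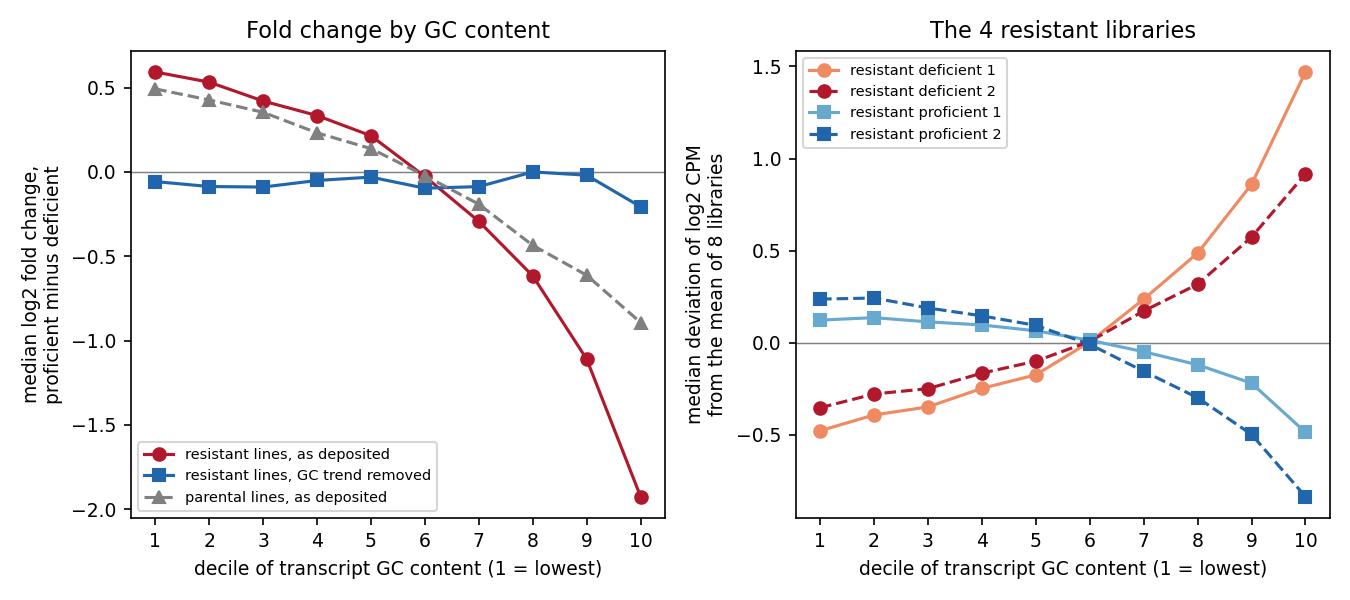
Left, the median log2 fold change (proficient minus deficient) in each decile of transcript GC content, for the resistant lines as deposited and with the GC trend removed and for the parental lines; right, the median deviation of log2 CPM from the 8-library mean in each resistant library. The as-deposited medians ran from 0.59 to -1.93, and at the highest GC the resistant deficient libraries lie above 0 (1.47 and 0.917) and the resistant proficient libraries below it (-0.486 and -0.835).

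Some single genes turned with this choice. MAZ, a zinc finger transcription factor, stood at 203 and 172 CPM in deficient and 61.2 and 50.9 CPM in proficient libraries, a log2 fold change of -1.74 ± 0.10 (edgeR adjusted p = 5.68e-08) as deposited and of 0.24 ± 0.099 (edgeR adjusted p = 0.0365) with the trend removed. ARHGAP23 gave log2 fold changes -1.51 and 0.21, MEPCE gave log2 fold changes -1.15 and 0.24, and NRARP, an inhibitor of NOTCH signalling, gave log2 fold changes -1.46 and 0.67, with all values past the edgeR threshold. These 4 genes were at least 2-fold lower on the counts themselves and slightly to moderately higher relative to genes of their GC content. With the trend removed, none of the 4 passed without the first deficient library (log2 fold changes 0.023, 0.069, 0.11 and 0.30 in the order above) or without the second proficient library (0.15, 0.11, 0.18 and 0.42).

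BRCA1 itself followed the labels. It was at 34.7 and 34.8 CPM in resistant deficient and 2176 and 2365 CPM in resistant proficient libraries, with no overlap, as for 86.5% of all genes tested, and a log2 fold change of 6.03 ± 0.084 (edgeR adjusted p = 2.70e-12), or 5.49 ± 0.051 (edgeR adjusted p = 1.02e-23) with the GC trend removed. The parental difference was 2.50 ± 0.074 (edgeR adjusted p = 1.16e-09), and the excess of the resistant over the parental difference was 3.53 (edgeR adjusted p = 1.66e-09). Among the tested coding genes around BRCA1 on chromosome 17, NBR1 was the nearest on one side. It gave -0.031 as deposited (edgeR adjusted p = 0.688) but passed as lower with the trend removed (-0.39, edgeR adjusted p = 6.60e-08). RND2, the nearest on the other side, gave 0.87 (edgeR adjusted p = 0.0111) and 1.07 (edgeR adjusted p = 0.00173). In bulk RNA, a difference in the number of expressing cells and a difference in RNA per cell cannot be told apart.

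Partners of BRCA1 in homologous recombination had no common direction as deposited and were mostly lower with the GC trend removed. Of 32 genes of BRCA1 complexes and recombination, 11 were higher and 11 lower as deposited (median -0.079, against -0.02 over all genes), and 4 were higher and 20 lower with the GC trend removed (median -0.40, against -0.07). With removal 34.1% of all genes were higher and 39.2% lower. PALB2, which links BRCA1 to BRCA2, stood at 68.7 and 78.6 CPM in deficient and 21.4 and 20.6 CPM in proficient libraries, a log2 fold change of -1.81 ± 0.086 (edgeR adjusted p = 1.16e-08) and of -2.30 ± 0.069 (edgeR adjusted p = 3.48e-16) with the trend removed. Its libraries did not overlap, as for 86.5% of all genes tested, and the parental lines went the other way (0.25 ± 0.079, edgeR adjusted p = 0.0163). BRCA2, a central protein of strand exchange, was at 73.9 and 87.00 CPM against 39.3 and 41.8 CPM, with -0.99 ± 0.092 (edgeR adjusted p = 2.10e-06) and -1.64 ± 0.058 (edgeR adjusted p = 4.30e-15) with the trend removed, and lies on chromosome 13. RAD54L, a motor protein of strand exchange, gave log2 fold changes -0.63 and -0.40, and did not pass where the trend was removed by bins of GC content (edgeR adjusted p = 0.224). XRCC3, a recombination gene, gave -1.72 as deposited but -0.016 ± 0.11 (edgeR adjusted p = 0.907) with the trend removed, and it passed as higher where the trend was removed by bins (0.42, edgeR adjusted p = 0.00248). ATM, the kinase that signals double-strand breaks, was higher, with log2 fold changes 0.82 and 0.18.

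The panel tied to PARP inhibitor response was led by the drug target. PARP1 was at 425 and 444 CPM in deficient and 145 and 136 CPM in proficient libraries, a log2 fold change of -1.63 ± 0.061 (edgeR adjusted p = 2.01e-09) and of -1.71 ± 0.041 (edgeR adjusted p = 1.03e-17) with the GC trend removed. All PARP1 values of the deficient libraries lay above those of the proficient ones, where 86.5% of all genes tested had no overlap. The parental difference was -1.19 ± 0.060, and the resistant minus the parental difference was -0.44 (edgeR adjusted p = 0.00141). PARP2, a second enzyme of the family, was higher in proficient cells (41.9 and 46.2 CPM against 73.3 and 77.9 CPM, log2 fold changes 0.78 and 0.44). TP53BP1, which encodes the end-protecting protein 53BP1, was higher as well, at 64.96 and 71.5 CPM against 113 and 122 CPM, with 0.79 ± 0.075 (edgeR adjusted p = 2.72e-06) and 0.47 ± 0.054 (edgeR adjusted p = 2.21e-07) with the trend removed. RIF1, its partner, was at 270.1 and 315 CPM and 284 and 324 CPM and overlapped between groups, with 0.054 ± 0.087 (edgeR adjusted p = 0.5899), but gave -0.60 ± 0.045 (edgeR adjusted p = 3.38e-10) relative to its GC content. As deposited RIF1 passed only without the second deficient library (0.20, edgeR adjusted p = 0.0487). In the shieldin complex the call depended on the fit for MAD2L2 (log2 fold changes -1.31 and 0.32, the second not passing without the first library of either group, at 0.17 and 0.23), while SHLD3 was higher in both fits (2.74 and 2.52 CPM against 6.59 and 7.45 CPM, log2 fold changes 1.42 and 0.77).

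SLFN11, a helicase whose loss is known to make cells tolerate replication stress, was higher in proficient cells at 5.52 and 8.04 CPM against 1.69 and 1.244 CPM, with 2.21 ± 0.25 (edgeR adjusted p = 1.06e-05) and 1.78 ± 0.24 (edgeR adjusted p = 1.53e-06) with the trend removed. The parental difference was 2.22 ± 0.25, and the difference between the comparisons did not pass the test (edgeR adjusted p = 0.987). ABCC1, a drug efflux pump, was at 169 and 159 CPM in deficient and 79.8 and 74.2 CPM in proficient libraries (log2 fold changes -1.09 and -0.63) after a parental difference of the opposite sign (0.28 ± 0.073). ABCB1, an efflux pump tied to PARP inhibitor resistance, stood at 0.432 and 0.116 CPM and 0.659 and 0.375 CPM, below 1 CPM in every resistant library, and did not pass (edgeR adjusted p = 0.314). DYNLL1, an inhibitor of end resection, was higher, with log2 fold changes 0.50 and 0.68. Over the 21 panel genes tested, 8 were higher and 4 lower as deposited, and 8 higher and 10 lower with the trend removed.

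The largest fold changes belonged to genes at or near 0 in one of the lines. By a rule that took the 10 coding genes per direction with the largest fitted change in both fits, the higher genes were SMR3B, PASD1, ZNF560, COL4A5, ZNF728, OR4C6, PCDHB8, GLB1L3, BHMT2 and ZNF676. SMR3B, a gene of salivary secretory proteins, had 0 counts in both deficient libraries and 36.9 and 31.02 CPM in the proficient ones, at least 711-fold higher against a floor of 3 counts over the group. PASD1, a cancer-testis antigen of the X chromosome, was at 0.03601 and 0 CPM against 77.6 and 76.1 CPM, a ratio of 4795 (95% interval 860.1 to 189443). The parental lines differed in the same way, with 0 counts of PASD1 in the deficient and a mean of 64.7 CPM in the proficient line. COL4A5, a chain of basement membrane collagen, was at 0.07202 and 0 CPM against 98.6 and 79.1 CPM, a ratio of 2798 (95% interval 774 to 23107). Both parental lines expressed COL4A5 (29.3 and 27.2 CPM deficient and 42.6 and 43.1 CPM proficient), so that 3 of the 4 lines expressed it. BHMT2, a methyltransferase of methionine synthesis, likewise stood at 42.3 and 43.2 CPM and 73.6 and 78.6 CPM in the parental lines, at 36.1 and 35.3 CPM in resistant proficient and at 0 and 0.116 CPM in resistant deficient libraries. These intervals and bounds cover counting error only.

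The lower genes by the same rule were GJB2, ZMYM2, COL22A1, FOXL1, TNFRSF8, MT1M, FOLR2, ZMYM5, UNC5A and TSHZ3. FOXL1, a forkhead transcription factor, was at 17.1 and 14.6 CPM in deficient libraries and 0 counts in the proficient ones, at least 277-fold lower, and was under 1 CPM in the parental lines. COL22A1, a collagen of tissue junctions, was at 21.5 and 18.5 CPM against 0, at least 350.0-fold lower. TNFRSF8, the receptor CD30, was at 17.6 and 10.7 CPM against 0, at least 243-fold lower, and MT1M, a metallothionein, at 12.8 and 8.74 CPM against 0, at least 186-fold lower. FOLR2, a folate receptor, was at 11.2 and 9.92 CPM against 0. In the parental proficient line FOLR2 and TNFRSF8 had 0 counts too, COL22A1 had 2 counts in total and MT1M had 71. The parental deficient means were 5.35 CPM for FOLR2, 2.72 for TNFRSF8, 6.46 for COL22A1 and 4.90 for MT1M. In each of these 5 genes both deficient libraries were on and both proficient libraries were off, and the rule took only genes without overlap.

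**Figure D2:**
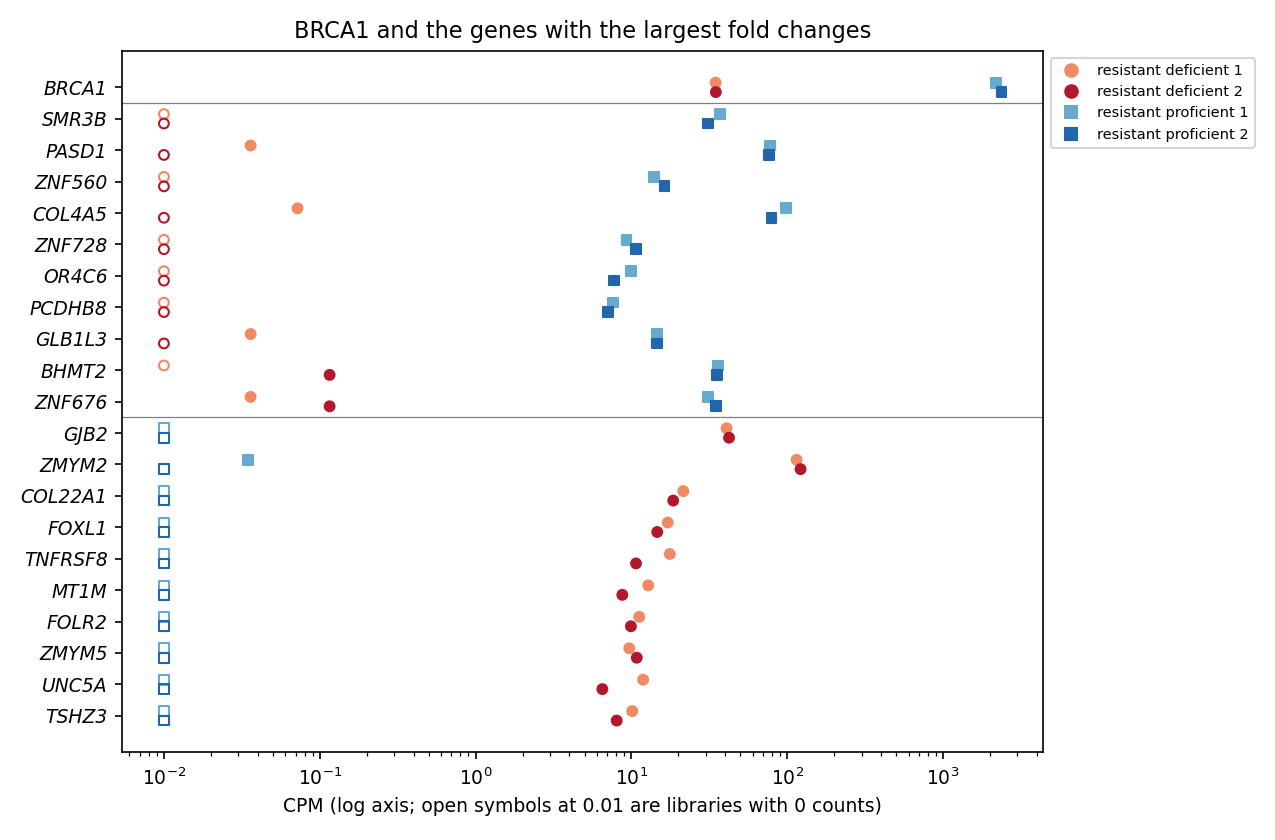
CPM on a log axis in each of the 4 resistant libraries for BRCA1 (top), the 10 genes with the largest higher and the 10 with the largest lower fold changes; open symbols stand for 0 counts. Circles (deficient) and squares (proficient) lie apart, as the rule that chose the genes below BRCA1 required and as for 86.5% of all genes tested. BRCA1, not chosen by that rule, is at 34.7 and 34.8 against 2176 and 2365 CPM.

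Counted over all genes, 22 (0.136%) had at most 3 counts over the deficient libraries and at least 5 CPM in proficient cells, and 28 (0.173%) the reverse. Of the 22, 18 were coding and 12 were under 1 CPM in both parental lines, so that they were seen at this level in 1 of the 4 lines. Of the 28, 2 were under 1 CPM in both parental lines. The first class had a median GC content of 44.95% and the second of 55.6%, against 48.1% over all genes tested.

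Of the 28, 5 lay side by side with other genes of the same pattern on chromosome 13. From MPHOSPH8 through PSPC1, ZMYM5 and ZMYM2 to the connexin genes GJA3, GJB2 and GJB6, all were expressed in the deficient libraries and at 0 to 2 counts in total in the proficient ones. MPHOSPH8, a subunit of the HUSH complex that silences transposable elements, was at 39.7 and 44.6 CPM against 0.0694 and 0 CPM, a ratio of 1120.0 (95% interval 309.7 to 9253). PSPC1, a paraspeckle protein, was at 52.9 and 51.8 CPM against 0.0694 and 0 CPM. ZMYM2, a zinc finger partner of corepressors, was at 115 and 122 CPM against 0.0347 and 0 CPM, a ratio of 6267 (95% interval 1125 to 247586). ZMYM5, its paralog, was at 9.69 and 10.8 CPM against 0, at least 182-fold lower. Each of these 4 genes was expressed in the parental proficient line, at 27.9 and 29.1 CPM for MPHOSPH8, 46.6 and 46.8 CPM for PSPC1, 17.6 and 14.4 CPM for ZMYM5 and 115 and 107 CPM for ZMYM2. GJB2 and these 4 genes were above 5 CPM in all libraries but the resistant proficient ones.

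The connexin genes next to them, which encode gap junction channels, went the same way. GJB2 was at 40.8 and 42.3 CPM against 0 counts, at least 733-fold lower, GJB6 at 1.98 and 2.198 CPM against 0, at least 37.01-fold lower, and GJA3 at 0.576 and 0.723 CPM against 0. Past them, CRYL1, a crystallin-like dehydrogenase, was at 8.53 and 8.59 CPM against 0.625 and 0.2498 CPM, and IFT88, a ciliary transport gene, at 4.36 and 4.57 CPM against 6.63 and 6.62 CPM. IFT88 was higher as deposited (0.57 ± 0.21, edgeR adjusted p = 0.0283) and gave -0.067 ± 0.19 (edgeR adjusted p = 0.757) with the trend removed. As deposited it did not pass without the first deficient library (edgeR adjusted p = 0.0552) or without the first or second proficient one (0.0615 and 0.0643), nor did it in DESeq2 (adjusted p = 0.06404). EEF1AKMT1, a lysine methyltransferase, was lower, with log2 fold changes -1.03 and -1.35, and IL17D, a cytokine, did not pass (-1.08, edgeR adjusted p = 0.0654; with the trend removed -0.26, edgeR adjusted p = 0.6399). As deposited it passed without the first or second parental proficient library (edgeR adjusted p = 0.0445 and 0.0426), with no filter on low counts (0.0329) and with the resistant groups fitted alone (0.0444). Its log2 fold change was -0.66 without the first resistant proficient library and -1.52 without the second. Of the 11 genes of the run 9 were lower and 1 was higher, with a median of -8.94, or -5.21 with genes at 0 to 3 counts set to their bound. The other 276 tested genes of chromosome 13 had a median of -0.40, or -0.79 with the trend removed, where 175 of 274 were lower and 37 higher. In the parental lines their median was 0.38.

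**Figure D3:**
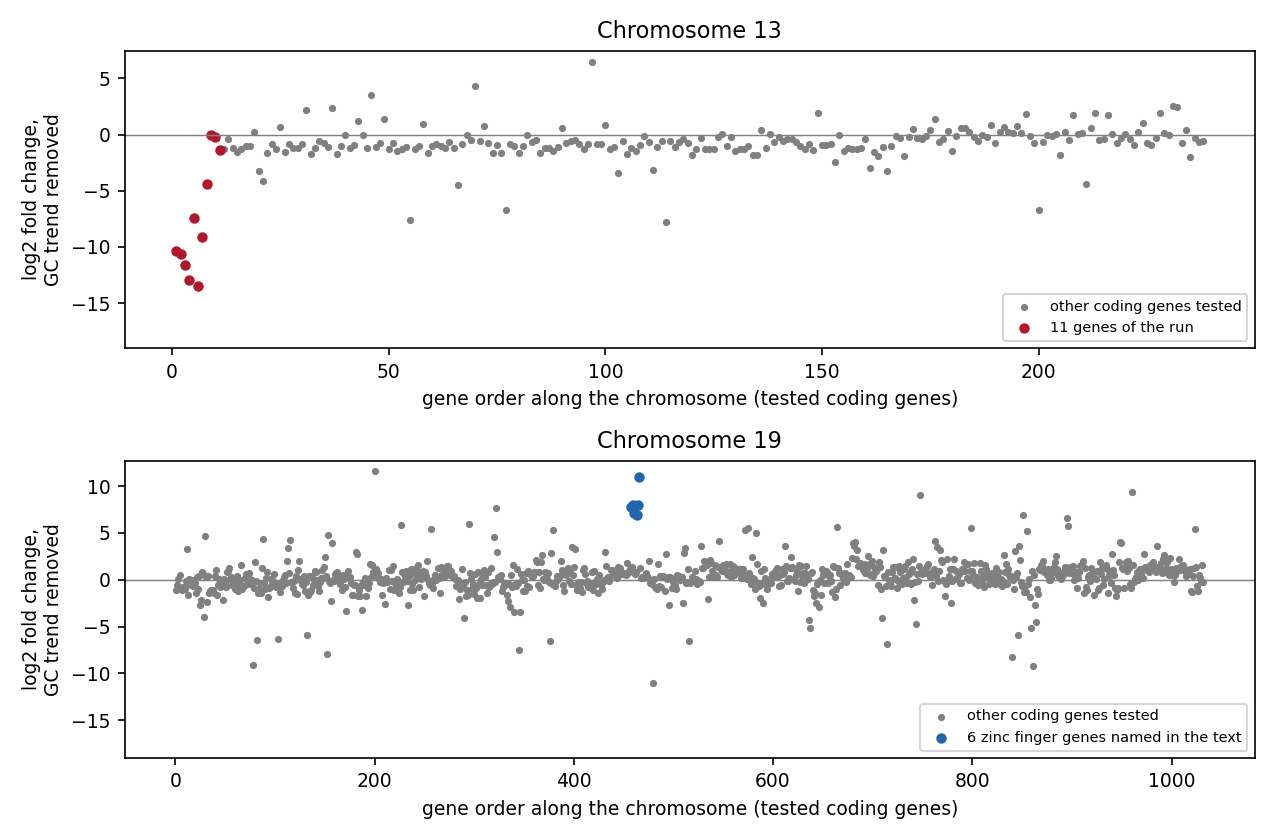
Log2 fold change (proficient minus deficient) with the GC trend removed for each tested coding gene in its order along chromosome 13 (top; the 11 genes of the run in red) and chromosome 19 (bottom; 6 zinc finger genes in blue). The run sits at the start of chromosome 13 with values down to -13.44, and the 6 zinc finger genes lie close together between 6.94 and 10.96.

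Other genes of transcriptional silencing were measured beside MPHOSPH8. TASOR, the HUSH scaffold, was higher at 79.9 and 92.7 CPM against 179 and 206 CPM (log2 fold changes 1.16 and 0.50). ATF7IP, which stabilises the histone methyltransferase SETDB1, was at 152 and 173 CPM against 503 and 524 CPM (log2 fold changes 1.66 and 1.05), and DNMT3B, a DNA methyltransferase, at 13.1 and 11.9 CPM against 31.6 and 31.1 CPM (log2 fold changes 1.33 and 1.67). CBX5, a heterochromatin protein, gave log2 fold changes 0.87 and 0.32. Of 29 silencing genes tested, 13 were higher and 12 lower as deposited and 13 and 14 with the trend removed. For all genes these shares were 36.3% and 37.5% as deposited.

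Zinc finger genes of chromosome 19, most of which encode DNA-binding repressors that sit in clusters, were mostly higher in resistant proficient cells. Of 241 tested, 203 were higher and 15 lower (median 1.27), and 196 and 8 with the trend removed (median 0.82). Of 239 zinc finger genes on other chromosomes, 109 were higher and 69 lower (median 0.20), and 87 and 75 with the trend removed. Over all genes 36.3% were higher and 37.5% lower, or 34.1% and 39.2% with the trend removed. The parental lines leaned the same way, with 157 of the 241 higher and 10 lower in proficient cells (median 0.60). Of the 239, 93 were higher and 49 lower there. Both lists were drawn up after the values were seen. Reads of near-identical zinc finger genes may be split between them in the counting. A group of 6 genes within 9 consecutive tested coding genes was at or near 0 in the deficient libraries. ZNF208 was at 0.07202 and 0.231 CPM in deficient and 53.3 and 57.04 CPM in proficient libraries, ZNF676 at 0.03601 and 0.116 CPM and 30.9 and 34.9 CPM, and ZNF729 at 0 and 0.0578 CPM and 8.08 and 7.16 CPM. ZNF99 was at 0.07202 and 0.0289 CPM and 10.3 and 9.12 CPM, ZNF723 at 0.03601 and 0.0289 CPM and 12.6 and 14.9 CPM, and ZNF728 at 0 counts and 9.299 and 10.7 CPM. The genes between and around them had smaller differences, such as ZNF257 (log2 fold changes 1.97 and 1.31) and ZNF98 (log2 fold changes 1.31 and 0.66), which were chosen as neighbours after the values were seen.

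Clustered protocadherins, adhesion proteins encoded in tandem on chromosome 5 of which a cell expresses a few, moved together. Of 41 tested, 33 were higher and 2 lower as deposited, and 33 and 2 with the trend removed, with medians of 1.79 and 1.84. In the parental lines 6 were higher and 6 lower, where 32.3% and 30.1% of all genes were. All 15 beta genes were higher (median 3.73), against 14 of 20 gamma genes (median 1.31) and 4 of 6 alpha genes (median 1.35). The summed level of the beta genes was 39.4 and 41.2 CPM in deficient and 187 and 197 CPM in proficient libraries. PCDHB5 was at 15.6 and 17.9 CPM against 62.7 and 67.8 CPM (1.96 ± 0.12, edgeR adjusted p = 1.08e-07; 1.88 with the trend removed), PCDHB14 at 1.04 and 1.244 CPM against 14.2 and 16.3 CPM (log2 fold changes 3.72 and 3.36), PCDHB11 at 1.15 and 1.244 CPM against 13.4 and 16.9 CPM, and PCDHB8 at 0 counts against 7.599 and 7.08 CPM, at least 153-fold higher. The exceptions were PCDHGC3 (log2 fold changes -1.27 and -0.59) and PCDHAC2 (log2 fold changes -0.63 and -0.72), both of the C type. PCDHAC2 did not pass in edgeR without the first deficient library (edgeR adjusted p = 0.163), without the first or second proficient library (0.145 and 0.0823) or without the first parental proficient library (0.0513), and in DESeq2 (adjusted p = 0.134).

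Interferon-stimulated genes, which cells switch on after interferon binds its receptor and which restrict viruses, split into both directions. Of 50 tested, 26 were higher and 17 lower in resistant proficient cells (median 0.56), and 24 and 18 with the GC trend removed (median 0.12). In both fits 23 were higher and 16 lower, where 26.2% and 27.8% of all genes were. Between the parental lines 5 were higher and 40 lower in proficient cells (median -2.20). For 18 of the 50 the sign turned from lower in parental to higher in resistant proficient cells with both comparisons and their difference past the test, against 510 of all 16221 genes (3.14%).

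GBP1, a guanylate-binding GTPase, was at 8.17 and 9.11 CPM in deficient and 75.9 and 81.4 CPM in proficient libraries, a log2 fold change of 3.18 ± 0.096 (edgeR adjusted p = 4.28e-10) and of 2.69 ± 0.074 (edgeR adjusted p = 9.56e-17) with the trend removed. SAMD9, a restriction factor of poxviruses, was at 15.8 and 17.5 CPM against 89.6 and 107 CPM (2.56 ± 0.11, edgeR adjusted p = 6.24e-09, and 1.90 ± 0.081, edgeR adjusted p = 7.32e-14 with the trend removed), although the parental difference had been -2.52 ± 0.13. BST2, which tethers budding virions to the cell, was at 46.5 and 37.2 CPM against 171 and 166 CPM (log2 fold changes 2.01 and 2.80) after a parental difference of -0.90 ± 0.094. STAT2, a subunit of the factor that drives these genes, was at 38.96 and 42.5 CPM against 157 and 149 CPM (log2 fold changes 1.90 and 1.86). In all 4 genes both proficient libraries lay above both deficient ones, where 86.5% of all genes tested had no overlap between the groups.

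Other members were lower in both the resistant and the parental proficient line. IFITM2, a membrane protein that blocks viral entry, was at 29.7 and 28.2 CPM against 0.486 and 0.624 CPM (-5.71 ± 0.21, edgeR adjusted p = 2.10e-09; -5.20 with the trend removed; parental -4.31 ± 0.21). OAS3, which makes the activator of RNase L, was at 98.6 and 89.98 CPM against 19.6 and 16.5 CPM (-2.38 ± 0.093, edgeR adjusted p = 2.80e-09; -1.999 with the trend removed; parental -3.93 ± 0.097). IFITM1 was at 13.9 and 12.4 CPM against 1.700 and 1.17 CPM (log2 fold changes -3.17 and -3.00), and LGALS3BP, a secreted glycoprotein, at 424 and 297 CPM against 143 and 110.4 CPM (log2 fold changes -1.51 and -0.27).

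The upstream sequence of genes from both directions is shown to let the motif of this pathway be seen where it stands. The interferon-stimulated response element was searched as GAAA, any 2 bases and GAAA, and on the other strand as TTTC, any 2 bases and TTTC, in the 250 bases before each gene's start, allowing overlap. It was found in 24 of 40 interferon-stimulated genes with a RefSeq promoter (60.0%), against 290 of 12152 promoters of genes tested (2.39%) and 839 of 27305 promoters in all (3.07%). Among genes higher in both fits 11 of 20 (55.0%) held it, and among those lower in both fits 8 of 13 (61.5%). Below are 120 bases around the match, from RefSeq on GRCh38.p14, with the match in capitals, for the 3 genes per direction with the smallest p that hold one.
GBP1, chr1:89065306-89065425, minus strand: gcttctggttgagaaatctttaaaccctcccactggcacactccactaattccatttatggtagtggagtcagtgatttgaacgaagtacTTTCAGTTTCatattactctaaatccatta
SAMD9, chr7:93118086-93118205, minus strand: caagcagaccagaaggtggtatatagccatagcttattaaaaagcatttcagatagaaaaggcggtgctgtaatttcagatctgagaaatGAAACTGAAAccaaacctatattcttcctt
BST2, chr19:17405725-17405844, minus strand: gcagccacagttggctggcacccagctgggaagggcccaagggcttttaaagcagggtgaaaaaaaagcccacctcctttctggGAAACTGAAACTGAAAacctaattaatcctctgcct
OAS3, chr12:112938354-112938473, plus strand: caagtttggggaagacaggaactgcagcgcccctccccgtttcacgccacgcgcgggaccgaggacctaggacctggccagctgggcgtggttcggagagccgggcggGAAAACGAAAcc
IFITM1, chr11:313910-314029, plus strand: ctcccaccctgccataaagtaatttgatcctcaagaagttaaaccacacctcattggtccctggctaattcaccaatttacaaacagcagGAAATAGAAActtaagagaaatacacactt
LGALS3BP, chr17:78979952-78980071, minus strand: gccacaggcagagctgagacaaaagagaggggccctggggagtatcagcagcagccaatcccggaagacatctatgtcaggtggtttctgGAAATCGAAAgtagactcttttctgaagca
A match is a description of these letters. GBP1, SAMD9 and BST2 were higher and OAS3, IFITM1 and LGALS3BP lower, and the match was present upstream of both.

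**Figure D4:**
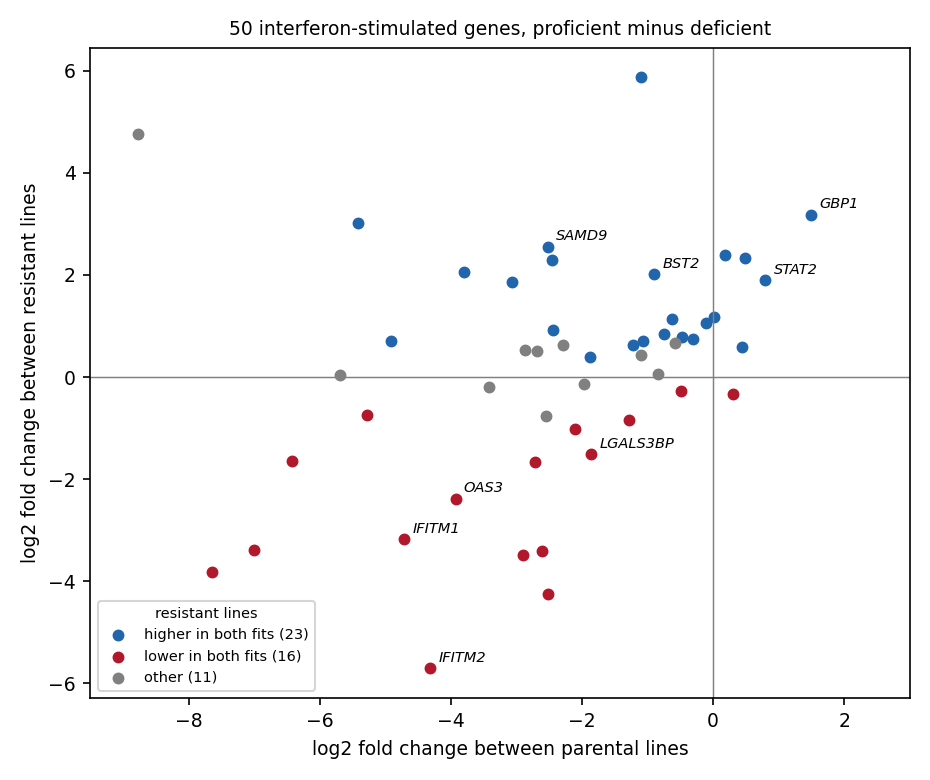
Log2 fold change (proficient minus deficient, as deposited) of 50 interferon-stimulated genes between the parental lines (x) and between the resistant lines (y), coloured by their direction between the resistant lines in both fits. Of the 23 genes higher in resistant proficient cells in both fits 17 lie to the left of 0 (lower in parental proficient cells), and of the 16 lower genes 15 do.

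Cytokines that respond to NF-kB showed no common direction (9 higher and 10 lower of 24). CXCL5, a neutrophil chemokine, was at 0.684 and 0.8099 CPM against 10.96 and 11.7 CPM (log2 fold changes 3.90 and 3.25) and CCL2, a monocyte chemokine, at 1.404 and 1.04 CPM against 15.3 and 15.4 CPM (log2 fold changes 3.66 and 3.16). IL6 gave log2 fold changes 1.77 and 1.39. IL32 was at 53.7 and 42.4 CPM against 1.700 and 2.25 CPM (log2 fold changes -4.61 and -3.65), and LIF, a cytokine of the IL6 family, gave log2 fold changes -2.28 and -1.55. In MHC class I presentation, the peptide transporter TAP2 (52.1 and 50.04 CPM against 19.1 and 15.1 CPM, log2 fold changes -1.57 and -1.69) and the immunoproteasome subunits PSMB8 (log2 fold changes -1.60 and -1.29) and PSMB10 (log2 fold changes -3.57 and -2.36) were lower, while the chaperone PDIA3 was higher (log2 fold changes 0.77 and 0.35). The median of the 21 class I genes turned from -0.55 to 0.32 with the trend removed.

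TGF-beta and matrix genes were mostly lower in resistant proficient cells. TGF-beta is a secreted factor that drives matrix production and mesenchymal traits. Of 27 TGF-beta genes, 18 were lower and 8 higher (median -1.61), and 19 and 8 with the trend removed (median -1.10). FN1, which encodes fibronectin, was at 5847 and 5996 CPM in deficient and 159 and 147 CPM in proficient libraries, a log2 fold change of -5.27 ± 0.070 (edgeR adjusted p = 2.70e-12) and of -5.80 ± 0.051 (edgeR adjusted p = 5.00e-24) with the trend removed. The parental proficient line had 7067 and 6937 CPM, and the parental difference was -0.50 ± 0.058. SPARC, a matrix glycoprotein, was at 113 and 121 CPM against 0.5205 and 0.749 CPM (-7.54 ± 0.13, edgeR adjusted p = 7.03e-12; -7.77 with the trend removed). TAGLN, an actin-binding protein, was at 255 and 242 CPM against 2.88 and 2.498 CPM (log2 fold changes -6.52 and -5.76), and PMEPA1, a feedback inhibitor of the pathway, at 705 and 635 CPM against 28.6 and 27.6 CPM (log2 fold changes -4.57 and -4.26). Against this direction, LTBP1, which holds latent TGF-beta in the matrix, was at 12.1 and 12.5 CPM against 308 and 289.8 CPM (log2 fold changes 4.60 and 4.69), and TGFBR3, a co-receptor, at 1.33 and 1.62 CPM against 36.2 and 36.7 CPM (log2 fold changes 4.61 and 4.18).

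Among collagens and other matrix genes 22 of 36 were lower and 10 higher, with a median of -1.54 that became -0.49 with the trend removed (23 lower and 11 higher). The laminin chains LAMB3 (23.3 and 15.9 CPM against 0.208 and 0.291 CPM, log2 fold changes -6.29 and -5.28) and LAMA4 (log2 fold changes -3.07 and -3.34) were lower, as was COL8A1 (log2 fold changes -2.15 and -2.40). COL12A1 was higher at 105 and 113 CPM against 776 and 803 CPM (log2 fold changes 2.85 and 2.57), beside COL4A5. Of 28 proteases and their inhibitors, 21 were lower and 4 higher as deposited (median -1.76), and 15 and 6 with the trend removed (median -0.91). Over all genes 37.5% were lower as deposited and 39.2% with the trend removed. Between the parental lines 17 of the 28 were lower and 3 higher in proficient cells (median -1.78). MMP2, a gelatinase, was at 258 and 229 CPM against 0.139 and 0.167 CPM (log2 fold changes -10.61 and -9.95), and KLK10, a kallikrein, at 26.5 and 21.5 CPM against 0.763 and 0.208 CPM (log2 fold changes -5.56 and -5.14). ADAMTS9, a secreted metalloprotease, gave log2 fold changes -2.40 and -2.57. TIMP3, an inhibitor of metalloproteases, was higher at 103 and 113 CPM against 930.3 and 932 CPM (log2 fold changes 3.10 and 2.96).

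Epithelial and mesenchymal markers were mixed. Of 37 epithelial genes 12 were higher and 19 lower as deposited and 19 and 13 with the trend removed, so that the direction of the list depended on the fit. EHF, an epithelial ETS factor, was at 0.756 and 1.16 CPM against 99.8 and 115 CPM (6.78 ± 0.15, edgeR adjusted p = 3.58e-11; 6.26 with the trend removed), and CDH1, E-cadherin, at 48.2 and 53.3 CPM against 178 and 172 CPM (log2 fold changes 1.78 and 1.63). MUC1, a mucin, was lower, with log2 fold changes -3.80 and -1.12. Of 25 mesenchymal genes tested 8 were higher and 11 lower as deposited, and 7 and 10 with the trend removed. Over all genes 36.3% were higher and 37.5% lower as deposited, so the higher genes named next do not stand for a common direction. VIM, a mesenchymal filament, was higher at 146 and 154 CPM against 263 and 262 CPM (log2 fold changes 0.81 and 0.56), although it was lower in the parental proficient line (parental -2.38 ± 0.071). WNT5A, a WNT ligand, was at 1.33 and 1.56 CPM against 78.8 and 88.1 CPM (5.84 ± 0.15, edgeR adjusted p = 1.16e-10; 5.32 with the trend removed), TGFB2, a TGF-beta ligand, at 5.76 and 3.88 CPM against 43.7 and 47.3 CPM (log2 fold changes 3.25 and 2.62), and TNC, a matrix protein, gave log2 fold changes 1.15 and 1.49.

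Genes tied to WNT signalling did not move as one. Of 20 tested, 11 were lower and 6 higher (median -1.11, -0.96 with the trend removed). DKK1, a secreted WNT inhibitor, was at 107 and 105 CPM against 5.07 and 5.79 CPM (-4.30 ± 0.11, edgeR adjusted p = 1.19e-10; -4.75 with the trend removed; parental -4.70 ± 0.11). MYC, a growth-promoting transcription factor, was at 285 and 230.4 CPM against 41.5 and 40.4 CPM (-2.65 ± 0.099, edgeR adjusted p = 2.04e-09; -2.31 with the trend removed), a larger difference than between the parental lines (-0.51 ± 0.093; edgeR adjusted p of the difference = 5.19e-07). CD44, a hyaluronan receptor, gave log2 fold changes -2.06 and -2.39 and CCND1, cyclin D1, gave log2 fold changes -1.09 and -1.12. AXIN2 and RNF43, feedback inhibitors of the pathway, were higher, AXIN2 at 2.66 and 2.31 CPM against 18.3 and 21.1 CPM (log2 fold changes 2.99 and 3.23) and RNF43 at 6.16 and 5.09 CPM against 14.5 and 15.2 CPM (log2 fold changes 1.40 and 1.40).

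Developmental regulators differed gene by gene. Of 27 HOX genes 12 were higher and 3 lower (median 0.30, 0.81 with the trend removed), among them HOXD10 (0.07202 and 0.231 CPM against 4.09 and 4.996 CPM), HOXB3 (5.47 and 5.18 CPM against 20.3 and 16.7 CPM) and HOXB8 (0.936 and 1.04 CPM against 12.3 and 9.83 CPM). HOXB9 was lower at 28.2 and 26.3 CPM against 15.1 and 13.99 CPM (log2 fold changes -0.91 and -0.40). WT1, a transcription factor of serous ovarian carcinoma, was at 0.144 and 0.0578 CPM against 7.84 and 9.16 CPM (6.40 ± 0.51, edgeR adjusted p = 6.08e-07; 6.67 with the trend removed). MEIS1, a HOX cofactor, was at 5.51 and 5.61 CPM against 17.7 and 17.2 CPM (log2 fold changes 1.65 and 1.11). SALL3 was at 4.93 and 4.54 CPM against 31.5 and 36.3 CPM (log2 fold changes 2.84 and 3.66) and had 0 counts in all 4 parental libraries. LHX1 was at 13.8 and 10.1 CPM against 0 and 0.0416 CPM, a ratio of 619.5 (95% interval 111 to 24504).

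Cytosolic ribosomal proteins were lower as a group. Of 49 tested, 39 were lower and 6 higher (median -0.78), and 42 and 5 with the trend removed (median -0.71). Their summed level was 55199 and 53553 CPM in deficient and 37669.8 and 34187 CPM in proficient libraries. The parental lines had a median of -0.76. RPL32 was at 1281 and 1318 CPM against 561 and 481 CPM (-1.32 ± 0.074, edgeR adjusted p = 4.32e-08; -1.58 with the trend removed), RPL4 at 2907 and 3050.3 CPM against 1537 and 1457 CPM (log2 fold changes -0.99 and -1.31), and RPL30 gave log2 fold changes -0.84 and -0.63. RPS6 was the reverse at 1285 and 1399.8 CPM against 2395 and 2233 CPM (log2 fold changes 0.79 and 0.29).

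Replication genes of the G1/S phase were mostly lower. Of 41 tested, 26 were lower and 11 higher as deposited (median -0.32), and 23 and 6 with the trend removed. Over all genes 37.5% were lower as deposited and 39.2% with the trend removed. The parental lines leaned the same way, with 24 of the 41 lower and 7 higher in proficient cells (median -0.41). In the MCM helicase, 6 of 7 genes were lower in each fit, among them MCM4 at 433 and 435 CPM against 201 and 185 CPM (-1.17 ± 0.063, edgeR adjusted p = 3.12e-08; -1.32 with the trend removed), MCM2 (log2 fold changes -1.89 and -0.98) and MCM5 (log2 fold changes -2.30 and -1.55). The 7 MCM genes had a median of -0.77 as deposited, and of -0.87 between the parental lines. GINS1, a partner of the helicase, was higher (log2 fold changes 0.86 and 0.30). For 45 G2/M genes the direction depended on the fit, with 18 higher and 14 lower as deposited and 5 and 33 with the trend removed. PLK1, a mitotic kinase, was lower in both at 291 and 235 CPM against 56.9 and 49.6 CPM (-2.30 ± 0.10, edgeR adjusted p = 7.25e-09, and -1.54 ± 0.049, edgeR adjusted p = 7.91e-16 with the trend removed), and CDC20, an activator of the anaphase-promoting complex, gave log2 fold changes -1.47 and -0.60. KIF4A, a chromosome motor, was higher at 70.3 and 75.1 CPM against 181 and 189.7 CPM (log2 fold changes 1.35 and 1.07).

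Metabolic genes differed in single enzymes more than as lists. Sterol and fatty acid synthesis had 18 of 34 genes higher and 14 lower, or 19 and 10 with the trend removed. HMGCS1, an enzyme of sterol precursor synthesis, was at 332 and 358 CPM against 776 and 860.3 CPM (log2 fold changes 1.25 and 0.63), and the fatty acid desaturase SCD gave log2 fold changes 0.98 and 0.75. LSS, which closes the sterol ring system, was lower (log2 fold changes -1.88 and -0.95). Antioxidant genes of the NRF2 pathway were lower in 15 of 27 and higher in 6, led by thioredoxin reductase TXNRD1 at 1075 and 1143 CPM against 464 and 494 CPM (-1.21 ± 0.061, edgeR adjusted p = 1.92e-08; -1.58 with the trend removed). Among glycolysis and hypoxia genes, HK1 (log2 fold changes -1.17 and -0.95), PKM (log2 fold changes -1.17 and -0.90) and VEGFA (log2 fold changes -1.49 and -1.07) were lower, while HK2, the other main hexokinase of cancer cells, was at 81.3 and 84.3 CPM against 446 and 438 CPM (2.42 ± 0.060, edgeR adjusted p = 9.01e-11; 2.45 with the trend removed).

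Receptor and transporter genes held some of the largest single differences. AXL, a receptor kinase tied to mesenchymal cells, was at 382 and 340.0 CPM against 7.32 and 8.41 CPM (-5.52 ± 0.099, edgeR adjusted p = 8.88e-12, and -5.19 ± 0.071, edgeR adjusted p = 2.98e-21 with the trend removed), with a parental difference of -1.40 ± 0.077. IGFBP3, a carrier of insulin-like growth factors, was at 687 and 711 CPM against 77.8 and 80.3 CPM (log2 fold changes -3.14 and -3.24). EPHA4, an ephrin receptor, was at 0.432 and 0.781 CPM against 17.1 and 16.3 CPM (log2 fold changes 4.74 and 4.38), FGFR2 at 32.4 and 35.8 CPM against 109 and 99.96 CPM (log2 fold changes 1.62 and 1.48), and ERBB3 gave log2 fold changes 1.05 and 1.17. Of 28 ABC transporters 17 were lower and 4 higher, with ABCB10, a mitochondrial transporter, at 36.9 and 38.8 CPM against 9.61 and 10.2 CPM (log2 fold changes -1.93 and -2.27) and ABCA1, a cholesterol exporter, at 8.102 and 6.91 CPM against 41.5 and 41.7 CPM (log2 fold changes 2.47 and 2.15).

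**Figure D5:**
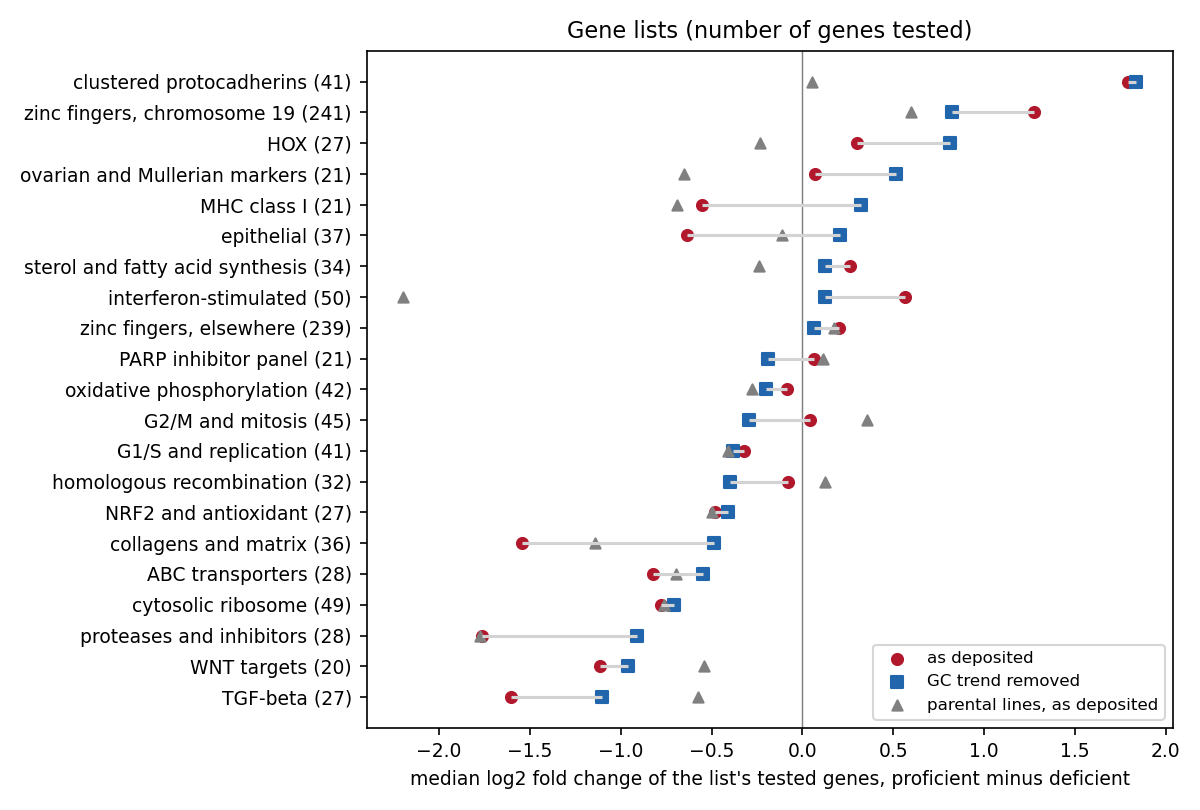
Median log2 fold change (proficient minus deficient) of 21 gene lists, for the resistant lines as deposited (circles) and with the GC trend removed (squares) and for the parental lines (triangles); the number of genes tested is in brackets. Of the lists drawn, protocadherins have the highest median in both fits (1.79 and 1.84), proteases the lowest as deposited (-1.76) and TGF-beta genes the lowest with the trend removed (-1.10), and 4 lists change sides: MHC class I and epithelial genes turn positive with the trend removed, and G2/M genes (0.039 to -0.29) and the PARP inhibitor panel (0.062 to -0.19) turn negative.

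The remaining lists had members in both directions. The unfolded protein and integrated stress response had 11 of 30 genes higher and 11 lower, receptor tyrosine kinases 14 and 12 of 36, and mesenchymal genes 8 and 11 of 25. Oxidative phosphorylation genes depended on the fit, with 16 of 42 higher and 18 lower as deposited and 10 and 25 with the trend removed. Imprinted genes had 9 and 7 of 23, developmental transcription factors 14 and 13 of 35, X-linked cancer-testis antigens 5 and 2 of 11, and histone genes 2 and 6 of 13 (4 and 5 with the trend removed).

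Markers of the labelled cell type such as PAX8 and EPCAM were present in both resistant lines, but not all were. WT1 was near 0 in the deficient libraries (0.144 and 0.0578 CPM against 7.84 and 9.16 CPM). Of 21 ovarian and Mullerian markers tested, 8 were higher and 9 lower as deposited, and 14 and 3 with the trend removed. PAX8, a transcription factor of Mullerian epithelium, was at 303 and 232 CPM in deficient and 267 and 227 CPM in proficient libraries with overlap (-0.11 ± 0.12, edgeR adjusted p = 0.399), but passed as higher with the trend removed (0.64 ± 0.049, edgeR adjusted p = 6.21e-10). As deposited its sign depended on the libraries, at -0.26 without the second deficient library, 0.12 without the first and 0.028 without the second proficient one. EPCAM was at 558 and 595 CPM and 764 and 807 CPM. MUC16, which encodes the CA125 antigen, was higher in proficient cells at 239.9 and 253 CPM against 855 and 787 CPM (1.74 ± 0.073, edgeR adjusted p = 4.65e-09; 1.71 with the trend removed), after a parental difference of -1.35 ± 0.074. KRT7 was lower (2079 and 1658 CPM against 561 and 451 CPM; log2 fold changes -1.89 and -0.32), and EMX2 was under 1 CPM in all 4 libraries. The leukocyte markers CD3E, LYZ and SPI1 were under 0.1 CPM in all 4 resistant libraries, while CD68, a lysosomal protein of macrophages, was at 16.5 and 15.9 CPM against 1.49 and 0.874 CPM (log2 fold changes -3.75 and -3.23) and PTPRC, the leukocyte surface phosphatase, at 3.49 and 4.66 CPM against 5.66 and 6.83 CPM (log2 fold changes 0.60 and -0.047, only the first past the test). As deposited PTPRC did not pass without the first deficient or the second proficient library (edgeR adjusted p = 0.0624 and 0.0729). The fibroblast markers COL3A1, DCN and LUM had 0 counts, but the type I collagen genes were detected, COL1A2 at 1.296 and 0.723 CPM against 28.9 and 28.1 CPM (log2 fold changes 4.85 and 4.31) and COL1A1 at 8.46 and 3.62 CPM against 1.73 and 1.62 CPM (log2 fold changes -1.83 and -0.47, only the first past the test). The mesothelial marker HAS1 had 0 counts. The 7 mesothelial markers tested, of 10 listed, summed to 118 and 82.9 CPM in deficient and 115 and 112 CPM in proficient libraries. Summed leukocyte markers, 7 tested of 15 genes listed, were 22.6 and 22.6 CPM in deficient and 29.9 and 29.1 CPM in proficient libraries. Of the endothelial markers 5 of 8 were lower and 1 higher. CD14, a monocyte surface protein, was at 1.04 and 0.752 CPM against 21.999 and 20.6 CPM (log2 fold changes 4.58 and 5.45), and CDH5, the endothelial cadherin, at 39.6 and 36.6 CPM against 1.94 and 1.37 CPM (log2 fold changes -4.50 and -4.10).

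The parental lines, which share no library with the resistant ones, held part of these differences. Of the 2820 genes higher by 2-fold, 1025 (36.3%) were also at least 2-fold higher in parental proficient cells, which is 60.0% of the 1709 genes called there (10.5% of those tested). Of the 3736 lower genes, 1636 (43.8%) were lower in parental proficient cells, 70.9% of 2306 there (14.2%). The opposite call was made for 120 and 45 genes. The difference between the comparisons passed for 7578 genes (46.7%), and for 1003 genes (6.18%) the sign turned with both comparisons and their difference past the test, 510 (3.14%) upwards and 493 (3.04%) downwards. With size as the rule, the turned genes were led upwards by OR4C6, PCDHB8, ZNF676, ZNF729 and ZNF99 and downwards by ZMYM5, MYH14, LINC02582, WNT11 and DOCK2. The parental side of most upward turns rests on few counts. Summed over the parental deficient and proficient libraries, OR4C6 had 8 and 0 counts, ZNF729 65 and 3, ZNF99 49 and 9 and PCDHB8 104 and 23. MYH14, a non-muscle myosin, was at 1.41 and 1.205 CPM and 10.1 and 9.82 CPM in parental deficient and proficient libraries but at 62.3 and 43.1 CPM and 0.278 and 0.291 CPM in the resistant ones. WNT11, a WNT ligand, went from 0.263 and 0.316 CPM and 1.65 and 1.52 CPM to 8.28 and 6.797 CPM and 0.208 and 0.333 CPM. DOCK2, a regulator of RAC known from leukocytes, was at 4.72 and 5.29 CPM and 0.0347 and 0.416 CPM in the resistant lines, and LINC02582, a noncoding RNA, at 9.83 and 8.27 CPM and 0.278 and 0.2498 CPM. In each of these 4 genes the proficient line was the higher one before resistance and the lower one in the resistant pair.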

How the data were processed

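RNA-seq of total RNA from 8 cell-line libraries, 2 for each of 4 groups, was deposited as 1 table of whole-number read counts per gene symbol (32803 symbols), the unit used here. Per the submitters' processing notes the build was GRCh37, and the tools named, with no roles, were DESeq2 1.24.0, featureCounts, Subread 2.0.1 and Trimmomatic 0.39. Sources used here give no annotation, strandedness or treatment of reads that fit several genes, so reads of overlapping, antisense or near-identical genes (zinc fingers, protocadherins, histones, MAGE genes) could not be told apart. Groups follow the cell line labels. In 1 title the prefix is spelled Olred where its cell line label has Olres. Nothing in the labels says whether replicates are separate cultures, so p-values measure the spread between these libraries, which may be technical. Total counts were 24094821 to 34394107 per library.

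The counts were filtered (filterByExpr, 16221 genes kept), scaled by TMM and tested in R 4.3.3 with edgeR 4.0.16 (quasi-likelihood, all 8 libraries, 4 residual degrees of freedom, Benjamini-Hochberg adjustment over all genes). The log2 CPM behind the GC trend used a prior count of 2, and fold changes kept edgeR's default prior count. CPM values are of TMM-scaled totals. In a second fit, a natural spline (5 degrees of freedom) of log2 CPM on the GC content of each gene's longest GENCODE release 29 transcript entered as offsets per library. For genes with 0 counts in a group, folds are bounds against a floor of 3 counts over the group; with 1 to 3 counts they are ratios with exact 95% intervals. Promoters are RefSeq's on GRCh38.p14.

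Genes named are BRCA1, members of the PARP inhibitor panel, up to 10 coding genes per direction with the largest change passing both fits (at least 5 CPM in the higher group, no overlap), up to 4 and 2 members per list by smallest p in and against its direction, up to 5 per direction whose sign turned against the parental lines, up to 4 whose sign turned with GC, and the chromosome 13 run. Neighbours of BRCA1 and of the zinc finger genes, further members of lists and marker genes were chosen after their values were seen. Members and lists were chosen with earlier results of these data known. On simulated counts with 2-fold and 4-fold changes, 70.8% and 87.9% were recovered over 15287 genes. With a GC trend added, removal lowered the share of unchanged genes called from 53.2% to 0.0794% over 15318 genes. The added trend was the spline fitted to these libraries, the same form that removal takes out, so this fall was built in. It cannot say whether removal is right for the data. Alternatives were other scalings, filters, DESeq2 1.42.0, the resistant groups alone, a replicate block, GC bins, and each library left out.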

Additional observations from a re-analysis of the deposited data

Results flagged for a closer look

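The resistant comparison differed from the parental one, by the test of the difference itself in edgeR, for 7578 genes. Among the genes described, BRCA1 had a resistant minus parental log2 difference of 3.53 (edgeR adjusted p = 1.66e-09), with both proficient lines above both deficient lines. Larger fitted differences came from genes at or near 0 in one of the groups, where the value depends on the prior count and is no bound. Upwards these were 15.90 for OR4C6, 12.64 for PCDHB8, 10.56 for ZNF676, 11.77 for ZNF729 and 9.68 for ZNF99. OR4C6 had 0 counts in resistant deficient and 9.89 and 7.702 CPM in resistant proficient libraries. In the parental deficient and proficient lines it had only 8 and 0 counts in total. ZNF676 was at 7.07 and 7.49 CPM in parental deficient and 2.06 and 1.73 CPM in parental proficient libraries. Downwards they were -11.85 for ZMYM5, -10.44 for MYH14, -7.23 for WNT11, -6.61 for LINC02582 and -5.85 for DOCK2. All of these genes passed the test of the difference and changed sign between the comparisons, other than BRCA1, which kept its sign.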

How the results depend on the processing

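The counts kept within 1.5 times of the reported values under other scalings (RLE factors, library totals alone), filters (none, or 1 CPM in 2 libraries), the resistant groups fitted alone, DESeq2 (2663 genes higher and 3444 lower) and glmTreat against a 2-fold limit (2025 and 2764). The higher genes (2820) also did so with the GC trend removed (2422). The lower genes did not: 3736 as deposited became 2452 with the trend removed by a spline, 2432 with a replicate block added and 2340 by bins of GC content, and the split of higher against lower went from 2820 and 3736 to 2422 and 2452. Genes called in the same direction in the resistant and parental comparisons went from 2661 to 1709, 1691 and 1723 under the same settings. Leaving out each library in turn, as deposited or with the trend removed, gave 2292 to 3795 lower genes and 1640 to 2693 of the same direction. Leaving out resistant libraries with the trend removed was added after the data were seen. The smallest count of the test of the difference, 5995 against 7578, came from leaving out a library.

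Of the genes with values in the text, several changed sign with the GC trend removed, since the offsets of that fit shift each gene by its GC content. As deposited, RIF1 (0.054), NBR1 (-0.031) and PAX8 (-0.11), none past the test, also changed sign in fits that left out 1 library. RIF1 went as low as -0.021, NBR1 as high as 0.068 and PAX8 as high as 0.12. With the spline the log2 fold changes were 0.21 for ARHGAP23, -0.067 for IFT88, 0.32 for MAD2L2, 0.24 for MAZ, 0.24 for MEPCE, 0.67 for NRARP, 0.64 for PAX8, -0.047 for PTPRC and -0.60 for RIF1. With the replicate block added they were 0.21 for ARHGAP23, -0.074 for IFT88, 0.32 for MAD2L2, 0.25 for MAZ, 0.25 for MEPCE, 0.70 for NRARP, 0.64 for PAX8, -0.045 for PTPRC and -0.60 for RIF1. By bins they were 0.60 for ARHGAP23, 0.43 for MAD2L2, 0.36 for MAZ, 0.59 for MEPCE, 0.62 for NRARP, 0.65 for PAX8, -0.53 for RIF1 and 0.42 for XRCC3. Over all fits that left out 1 library, with or without the trend, they ranged over -1.63 to 0.30 for ARHGAP23, -0.11 to 0.64 for IFT88, -1.53 to 0.43 for MAD2L2, -1.84 to 0.42 for MAZ, -1.22 to 0.34 for MEPCE, -1.46 to 1.04 for NRARP, -0.26 to 0.71 for PAX8, -0.17 to 0.87 for PTPRC, -0.65 to 0.20 for RIF1 and -2.003 to 0.056 for XRCC3.

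The replicate numbers of the labels were treated as a block in a further fit, which gave 2810 genes higher, 3717 lower and 7837 passing the difference. Same-numbered libraries of the resistant groups deviated together with a correlation of 0.21, while other pairs of groups gave -0.13 to 0.12, so the numbers were not taken to pair the samples.

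Depth limits the on and off genes: libraries held from 24094821 counts, and a gene at 0 is read as under the 3-count floor, not as absent. Each group has 2 libraries of 1 line, and p-values measure the spread between these libraries alone. GC content, passage and line differ together between the groups, and their parts cannot be told apart.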

Other observations

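With the GC trend removed, genes of some chromosomes shifted together between the resistant lines. Chromosome 13 had the lowest median log2 fold change (-0.79 over 238 coding genes, 67.2% lower and 13.4% higher), although its parental median was 0.15. Chromosomes 8, 20 and 16 followed with medians of -0.52, -0.44 and -0.43, and on chromosome 8 61.4% of 484 genes were lower and 17.6% higher. Chromosomes 19, 12 and 14 had the highest medians of 0.33, 0.32 and 0.29. On chromosome 12, 52.6% of 739 genes were higher and 23.95% lower, and on chromosome 14, 53.2% of 457 were higher and 24.5% lower, against 34.1% and 39.2% over all genes. The parental medians of chromosomes 12 and 14 were 0.0086 and 0.024. As deposited the order differed: chromosome 16 was lowest at -0.97 and chromosome 19 stood at -0.59.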
